A study of Mus musculus with 4 samples.

Results

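Genes that restrain the growth-controlling kinase complex mTORC1 were followed here in mouse heart, together with its kinase and a repressor that it phosphorylates. These were 10 of the 18193 genes measured. They are Ddit4 (which encodes REDD1) and its paralog Ddit4l (REDD2), the sestrins Sesn1, Sesn2 and Sesn3, the tuberous sclerosis genes Tsc1 and Tsc2, the mTOR-binding inhibitor Deptor, the translational repressor Eif4ebp1 (4E-BP1), and Mtor, the kinase itself. Every probe set that the platform annotation assigns to one of these symbols alone was taken, 28 in all, and the brightest one of a gene, by its mean on the 4 arrays, stood for that gene. The probe sets were thus chosen by their measured level, and the genes were selected on log2 differences between the groups, being listed with differences of these data already known, that of Ddit4 among them. The differences and p-values of the members are therefore descriptions and not independent evidence.

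The samples were 2 of heart labelled GSK-3beta S9A knock-in, aged 3.5 months, and 2 labelled wild-type, aged 3.6 months. All were of strain C57B6, were taken at baseline, and gave total RNA for Affymetrix 3' arrays, on which a probe set sums up several short probes of a transcript. Serine 9 is the residue whose phosphorylation inhibits GSK-3beta, and the alanine replacement cannot be phosphorylated there. Sex, zygosity, time of day and feeding state are not given in the sources used here. Nor is it said that replicates were different mice, so the p-values cover the spread among these 4 samples, and that spread may be technical. The wild-type samples also served a comparison with a GSK-3alpha knock-in, which is not analysed here.

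mTORC1 promotes protein synthesis and cell growth when insulin signalling and amino acids are plentiful. The TSC1-TSC2 complex inactivates the small GTPase Rheb, the direct activator of mTORC1, and REDD1, which is made under hypoxia, energy stress and glucocorticoids, acts through that complex. Sestrins hold back the lysosomal arm that senses amino acids. GSK-3beta is tied to this pathway at several points, since it can phosphorylate TSC2 together with AMPK and can mark REDD1 protein for degradation.

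Array medians lay between 5.97 and 6.04 on the log2 scale. The 8 cardiomyocyte markers lay between 12.95 and 14.75 on every array, far above the array medians, as the heart label requires. Gsk3b was at 9.82 and 9.87 in knock-in hearts, against 9.62 and 9.72 in wild-type hearts, and no probe set can read the amino acid change itself. The signal of the 3' control probe set over the 5' one for beta-actin, a sign of RNA quality, was 0.37 and 0.28 (log2) in knock-in and 0.45 and 0.39 in wild-type samples. For Gapdh it was 0.77 and 0.54 against 0.64 and 0.60. The beta-actin values were lower on both knock-in arrays, and their part in the results below was not tested. Of all genes, only Cdkn1a passed the test at an adjusted limma p under 0.05.

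The sequences just upstream of Ddit4 and Sesn1 are shown because these were the members with the largest difference in each direction. They are RefSeq windows of build GRCm38.p6, the 250 bases before each annotated start, read 5′ to 3′ on the strand of the gene. Ddit4 lies at chr10:59951771-59952020 on the minus strand, and Sesn1 has a window for each of its 2 starts, at chr10:41810324-41810573 and chr10:41887189-41887438 on the plus strand. Capitals mark the hypoxia core described after the sequences, and windows without capitals held no match in the bases shown.
Ddit4: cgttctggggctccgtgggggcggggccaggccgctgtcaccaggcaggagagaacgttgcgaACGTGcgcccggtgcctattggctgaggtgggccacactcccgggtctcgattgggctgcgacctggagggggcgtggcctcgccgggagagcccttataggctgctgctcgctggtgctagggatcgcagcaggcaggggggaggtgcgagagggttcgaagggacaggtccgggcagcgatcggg
Sesn1 upstream start: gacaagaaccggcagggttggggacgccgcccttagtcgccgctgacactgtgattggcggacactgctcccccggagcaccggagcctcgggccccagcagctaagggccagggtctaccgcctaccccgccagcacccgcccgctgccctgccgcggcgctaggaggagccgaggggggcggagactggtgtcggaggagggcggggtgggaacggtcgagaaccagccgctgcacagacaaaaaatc
Sesn1 downstream start: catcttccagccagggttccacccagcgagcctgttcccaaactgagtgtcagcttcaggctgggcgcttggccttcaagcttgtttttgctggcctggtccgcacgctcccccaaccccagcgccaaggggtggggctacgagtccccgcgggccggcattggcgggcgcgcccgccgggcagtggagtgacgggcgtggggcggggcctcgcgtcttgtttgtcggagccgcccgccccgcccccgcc
Of the 10 members, 8 had at least 1 window, 9 windows in all. They were searched on both strands, over 250 bases before and 50 bases after the start, for an E-box (CACGTG), the core of the C/EBP-ATF response element (TGATGNAA), the core of the hypoxia response element (the letters ACGTG, which also lie within the E-box), part of the glucocorticoid response element (AGAACA) and the forkhead motif (TGTTTAC). Only Ddit4 held a hypoxia core, starting at position -187, a motif found in 19.6% of all 32851 windows. Only the upstream start of Sesn1 held a forkhead motif, at position 23 after the start, against 3.65% of all windows. It is shown here in capitals with its flanks, at chr10:41810588-41810610.
Sesn1 forkhead match: ccttctacTGTTTACcagccttt
None of the 9 windows held the E-box, the C/EBP-ATF core or the glucocorticoid element letters, which were in 7.15%, 3.97% and 19% of all windows. These matches describe letters and not bound sites. The upstream bases of Ddit4 were 70% G or C and those of the 2 Sesn1 windows 70% and 71.2%, against a median of 52.4% over all windows.

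Among the 10 members, Ddit4 alone stood far from its wild-type level, on the only probe set it had. REDD1, its product, is the stress-induced inhibitor that acts through TSC1-TSC2. The log2 level of Ddit4 was 9.99 and 9.84 in knock-in hearts, against 11.14 and 11.38 in wild-type hearts. Both knock-in samples thus lay more than 1 log2 unit below both wild-type samples. The means were 9.92 ± 0.11 in knock-in and 11.26 ± 0.17 in wild-type hearts (SD, n = 2 each), a 2.54-fold lower level, with a log2 difference of -1.34 and a 95% confidence interval from -1.65 to -1.04. Counted from the most negative difference, Ddit4 ranked 6 of 18193 genes. Its adjusted p over all genes was 0.0724 by limma, so it did not pass at 0.05. In the limma fit over all probe sets other than controls its adjusted p was 0.142. With 1 probe set, Ddit4 had no other reading to set beside this. Because hearts were measured in bulk, fewer cells with the transcript and less transcript per cell cannot be told apart.

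The call on Ddit4 depended on the fit. The adjusted limma p was 0.00616 with an intensity trend and robust prior, 0.0341 with each array centred on its median, 0.0238 after quantile normalization, 0.0222 with probe sets averaged per gene and 0.0346 among genes above the median. It was 0.709 with the replicate number as a block and between 0.189 and 0.577 with any 1 array left out. Nor did Ddit4 pass with the first-listed probe set (adjusted limma p of 0.0706) or with the replicate numbers crossed in the block (0.111). As Ddit4 had 1 probe set, averaged or first-listed probe sets left its own values unchanged and altered only other genes. The log2 difference itself stayed between -1.47 and -1.22 under all 12 alternatives.

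**Figure D1:**
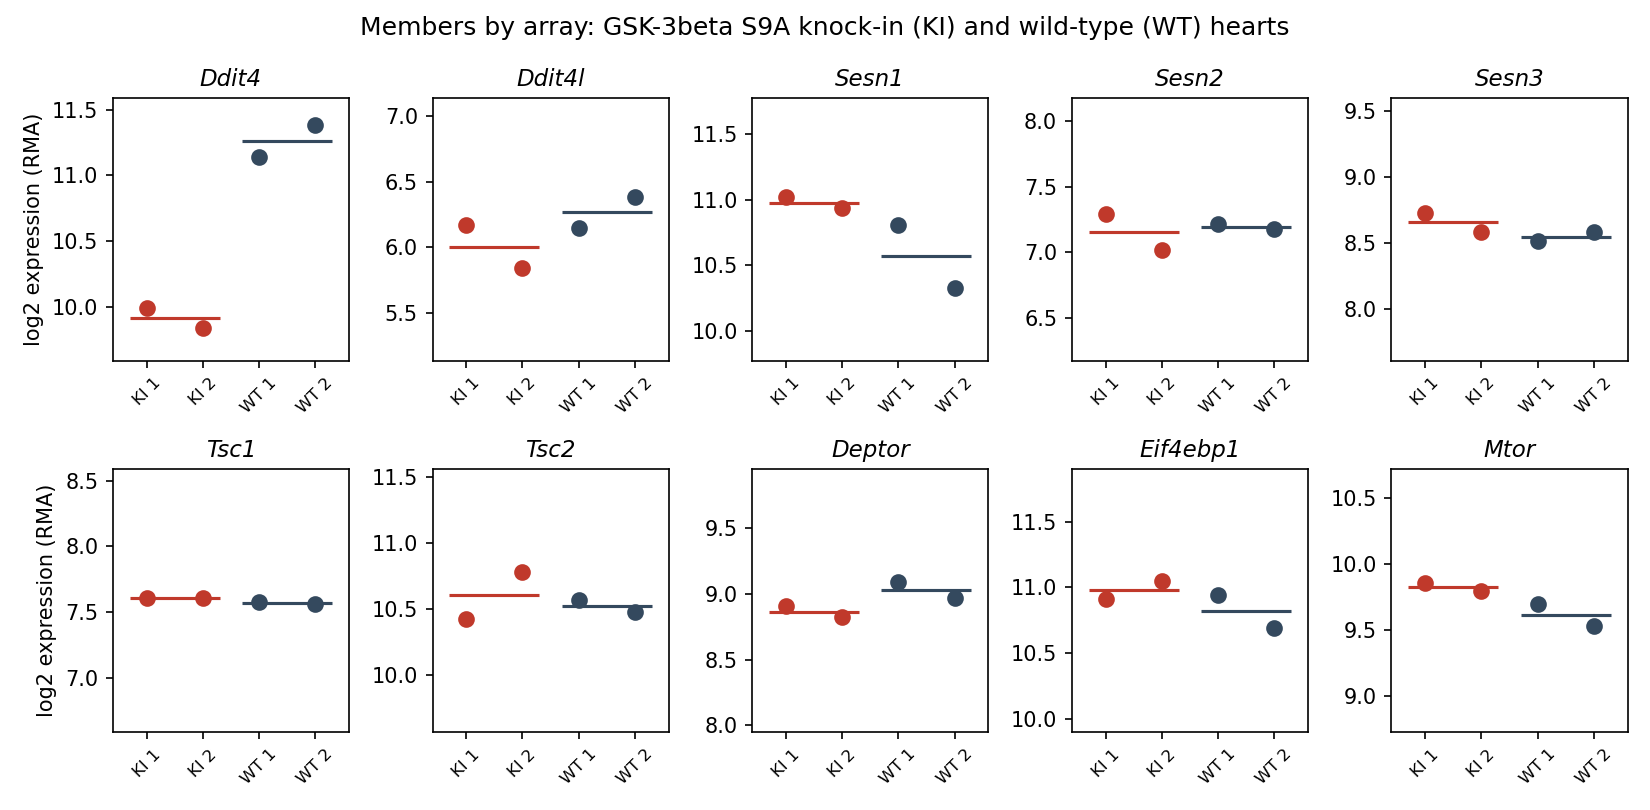
Log2 expression of the 10 members on each array (points), knock-in (KI, red) left of wild-type (WT, dark), with lines at the group means. Every panel spans 2 log2 units, and Ddit4, at 9.92 in knock-in and 11.26 in wild-type hearts on average, is the panel in which the groups stand furthest apart.

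Ddit4l, whose product REDD2 also inhibits mTORC1 and is known from skeletal muscle, was dim and slightly lower. Its levels were 6.17 and 5.84 in knock-in hearts, against 6.15 and 6.39 in wild-type hearts, and the groups overlapped. The difference was -0.26 with a 95% interval from -0.62 to 0.10 (adjusted limma p of 0.761). Its other probe sets, of which there were 2, differed by -0.25 and -0.22, and in each of these both knock-in arrays were below both wild-type arrays. All 3 were close to 6, below the median of the gene means, where RMA gives a value even if the transcript is absent.

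Sesn1, the sestrin known as a p53 and FoxO target, went the other way. Sestrins act on the GATOR complexes to keep mTORC1 off the lysosome when leucine is scarce. The probe set that represents Sesn1 read 11.02 and 10.94 in knock-in hearts, against 10.81 and 10.33 in wild-type hearts. The knock-in arrays were above both wild-type arrays, which themselves lay far apart. The difference was 0.41, or 1.33-fold, with a 95% interval from 0.0075 to 0.81 and an adjusted limma p of 0.664. Without wild-type replicate 2 it was 0.17, and without wild-type replicate 1 it was 0.65.

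The other bright probe sets of Sesn1 gave a larger and tighter separation. One read 9.59 and 9.48 in knock-in hearts, against 8.96 and 9.06 in wild-type hearts, a 1.44-fold difference. Another read 9.43 and 9.32 in knock-in hearts, against 8.57 and 8.92 in wild-type hearts, a 1.55-fold difference. In a fit over all 45037 probe sets other than controls, their adjusted limma p was 0.537 and 0.611, so neither passed. The dimmest probe set of Sesn1, at 5.53 and 5.52 in knock-in and 5.96 and 5.49 in wild-type hearts, differed by -0.20 and overlapped. The brightest probe set and the first of the others carry the same source sequence in the annotation, so they are not independent readings.

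For the other sestrins the probe sets of one gene disagreed in sign. Sesn2, induced by amino acid and oxidative stress, read 7.29 and 7.02 in knock-in hearts, against 7.22 and 7.18 in wild-type hearts, a difference of -0.04 with an interval from -0.34 to 0.25. Its dimmer probe set differed by 0.15, with 6.49 and 6.51 in knock-in hearts above 6.35 and 6.36 in wild-type hearts. Sesn3, a FoxO target, read 8.73 and 8.59 in knock-in hearts, against 8.51 and 8.58 in wild-type hearts, a difference of 0.11. Its other probe set differed by -0.19 and overlapped. No direction can thus be given for Sesn2 or Sesn3.

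**Figure D2:**
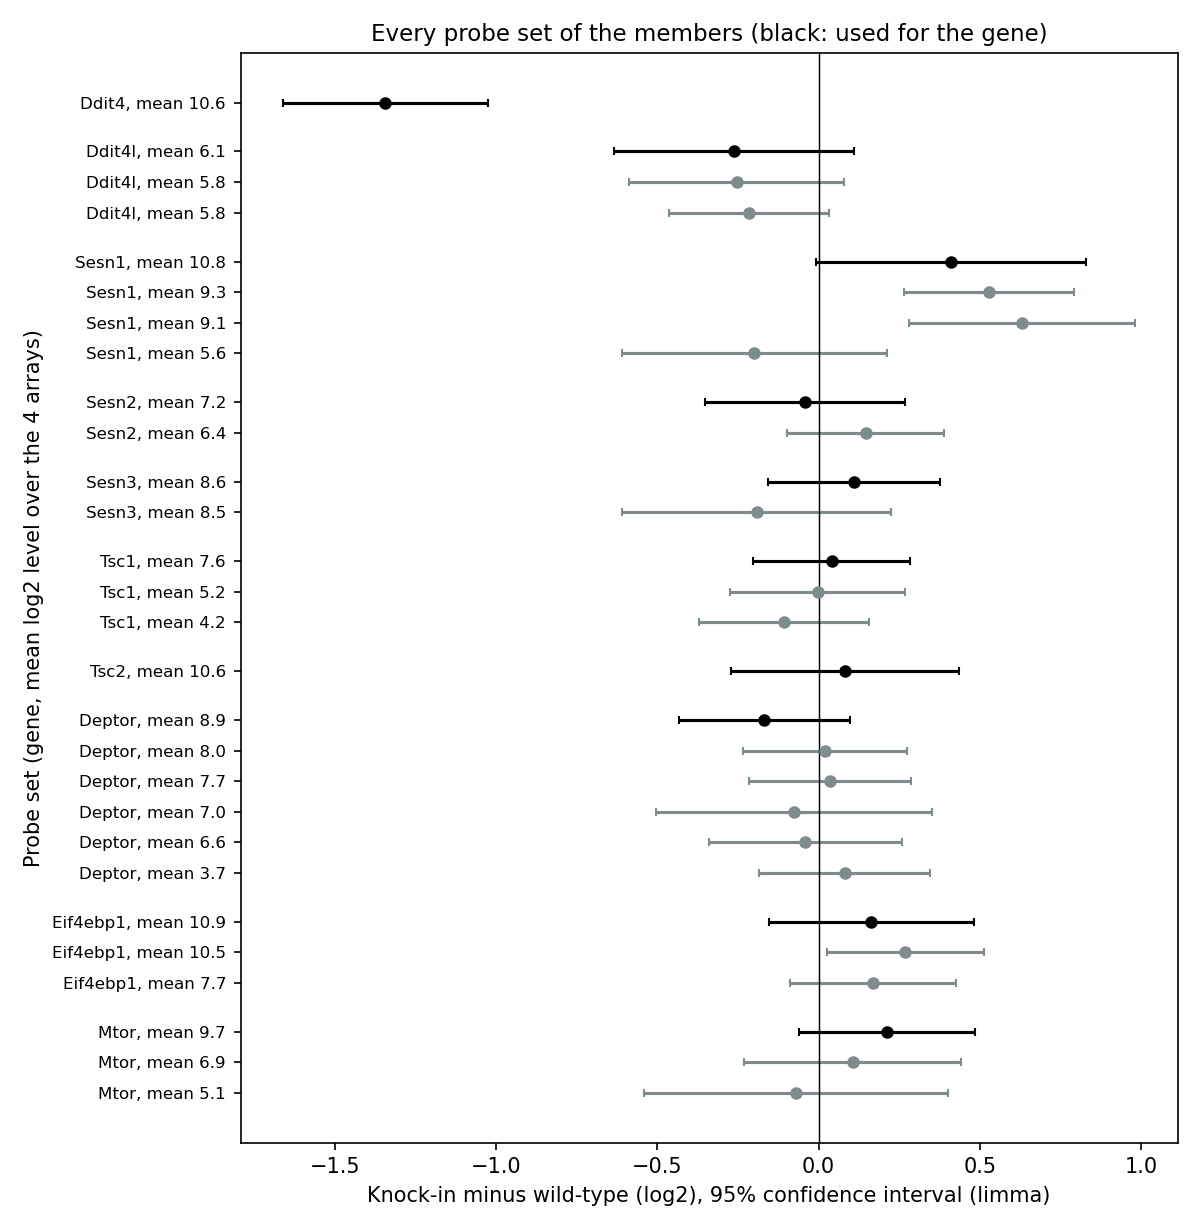
Knock-in minus wild-type log2 difference of all 28 probe sets of the members, with 95% confidence intervals from limma fitted over all probe sets; labels give the gene and the mean level, and black marks the probe set used for the gene. Ddit4 stands alone at -1.34, 3 of the 4 Sesn1 probe sets lie between 0.41 and 0.63, and most other intervals include 0; that of the Sesn1 probe set in black reaches -0.0081 in this fit.

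The subunits of the TSC complex, which turns Rheb off, were near their wild-type levels. Tsc1, the stabilising subunit, read 7.61 and 7.61 in knock-in hearts, against 7.57 and 7.56 in wild-type hearts, a difference of 0.04 with an interval from -0.19 to 0.27. Its other probe sets, both dim, differed by -0.00315, with overlap, and by -0.11, with both knock-in arrays lower. Tsc2, the subunit with the GTPase-activating domain, had 1 probe set, which read 10.42 and 10.78 in knock-in hearts, against 10.57 and 10.48 in wild-type hearts. The knock-in arrays of Tsc2 enclosed the wild-type ones, and the difference of 0.08 had an interval from -0.26 to 0.42. A difference of the size seen for Ddit4 lies outside both intervals.

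Deptor, which binds mTOR and inhibits it, had the most probe sets, 6. The brightest read 8.91 and 8.82 in knock-in hearts, against 9.09 and 8.97 in wild-type hearts, a difference of -0.17 with an interval from -0.42 to 0.08. Although the groups did not overlap there, the other 5 probe sets differed by -0.08 to 0.08 and overlapped. A separation of the groups was thus seen on 1 probe set only.

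Eif4ebp1 encodes the repressor that holds the cap-binding protein eIF4E until mTORC1 phosphorylates it, and all 3 of its probe sets read higher in knock-in hearts. The brightest read 10.91 and 11.05 in knock-in hearts, against 10.94 and 10.69 in wild-type hearts, a difference of 0.16 in which the groups overlapped (interval from -0.14 to 0.47). The next, at 10.66 and 10.65 in knock-in hearts and 10.40 and 10.38 in wild-type hearts, was the tightest, with a difference of 0.27. The dimmest differed by 0.17. None passed, the smallest adjusted limma p over all probe sets being 0.830.

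Mtor, the kinase on which these brakes act, read 9.86 and 9.80 in knock-in hearts, against 9.70 and 9.53 in wild-type hearts. Both knock-in arrays were above both wild-type arrays, by a mean difference of 0.21 with an interval from -0.05 to 0.47 (adjusted limma p of 0.730). Its dimmer probe sets differed by 0.11 and -0.07 and overlapped.

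Over the 10 members, none passed by limma at an adjusted p under 0.05, against 0.0055% of all genes. At an unadjusted p under 0.05 there were 1 lower, Ddit4, and 1 higher, Sesn1, against 2.99% and 4.4% of all genes. The arrays of the groups did not overlap for 6 of the 10, lower for Ddit4 and Deptor and higher for Sesn1, Sesn3, Tsc1 and Mtor, against 36.5% of all genes. The genes were listed with these differences known, so nothing is read from these shares. Among the 28 probe sets none passed, against 0% of all probe sets, and 1 lower and 3 higher had an unadjusted p under 0.05, against 3% and 2.84%. The groups did not overlap for 5 lower probe sets, against 18.2% of all, and for 9 higher ones, against 15.7%, which makes 14 of 28 against 33.9%. The median difference was 0.06 over the members and 0.00 over all genes, and the median size of the difference regardless of sign was 0.17 and 0.09. The members thus read in both directions, 4 lower and 6 higher, against 9053 lower and 9140 higher of all 18193 genes. For the 9 members other than Ddit4 the size of the difference ran from 0.04 to 0.41.

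Further genes of the pathway were read from 6 lists by role, of which 79 of 86 genes were measured. None of the 79 passed at an adjusted limma p under 0.05, and 9 had an unadjusted p under 0.05, 8 higher and 1 lower. That is 11.4%, against 7.39% of all genes and 9.73% of genes above the median, where 69 of the 79 lay. Both knock-in arrays were above both wild-type arrays for 32 of them (40.5%), against 19.6% of all genes and 26.7% of genes above the median. They were below for 9 (11.4%), against 17% of all genes. The median difference over the 79 was 0.06, against 0.02 over genes above the median. By sign alone 53 were higher and 26 lower, against 9140 higher and 9053 lower of all 18193 genes. The counts of higher and lower genes by list given below include differences near 0, and nothing is read from them.

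The list of AMPK and its activator LKB1, the energy sensor that activates TSC2, had the highest median, 0.16, with 8 of 10 genes higher and 2 lower. Prkag2, the gene of a regulatory gamma subunit, read 8.21 and 8.35 in knock-in hearts, against 7.75 and 7.71 in wild-type hearts, a 1.47-fold difference (adjusted limma p of 0.289). Prkaa1, a catalytic subunit gene, read 4.84 and 4.35 in knock-in hearts and 3.89 and 4.66 in wild-type hearts and overlapped.

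Among the 12 measured genes of the mTOR complexes and Rheb, 8 were higher and 4 lower, with a median of 0.07. Tbc1d7, the third subunit of the TSC complex, read 9.09 and 9.13 in knock-in hearts, against 8.65 and 8.66 in wild-type hearts, a 1.37-fold difference (adjusted limma p of 0.345). It was thus set further apart than Tsc1 or Tsc2, although the difference between these genes was not tested. Rhebl1, a Rheb paralog, differed by 0.19 and overlapped. Of 24 genes that sense amino acids at the lysosome, 15 were higher and 9 lower, with a median of 0.04. Fnip1 and Fnip2, partners of folliculin, differed by 0.48 and 0.34 with the groups apart in both. No gene of these lists passed.

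The substrates and translation outputs of mTORC1 held 7 higher and 6 lower genes among 13, with a median of 0.04. Eef2k, the kinase that slows translation elongation, read 9.18 and 9.15 in knock-in hearts, against 8.63 and 8.58 in wild-type hearts. This 1.47-fold difference had the smallest adjusted p of the 79, 0.239 by limma. Eif4e, the cap-binding protein that 4E-BP1 holds, read 11.65 and 11.95 in knock-in hearts, against 11.35 and 11.37 in wild-type hearts, a 1.36-fold difference (adjusted limma p of 0.472).

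Of the transcription factors known to induce Ddit4 or the sestrins, 7 of 11 read higher in knock-in hearts and 4 lower, with a median of 0.07. Hif1a, the oxygen-regulated factor, read 10.23 and 10.42 in knock-in hearts, against 9.62 and 9.87 in wild-type hearts, 1.49-fold higher (adjusted limma p of 0.354). Both knock-in arrays were above both wild-type arrays, the reverse of Ddit4. Nfe2l2, the antioxidant factor NRF2, differed by 0.39. Atf4 differed by 0.07, Foxo1 by -0.06, Foxo3 by 0.24 and the glucocorticoid receptor gene Nr3c1 by 0.05, which are named as the main stress routes to these genes and were picked after their values were seen. None of these 6 passed. Trp53, the p53 gene, was also on the list but was not among the genes measured. The activity of these factors, much of which is set at the protein level, was not measured.

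Regulators of REDD1 protein and its partners had 8 higher and 1 lower genes among 9, with a median of 0.05 and none past the test. The groups were apart for 5 of the higher ones, against 26.7% higher without overlap among genes above the median, and the rest overlapped. Txnip, which binds and stabilises REDD1, differed by 0.43, with 12.52 and 12.23 in knock-in hearts above 11.76 and 12.13 in wild-type hearts. Cul4a, the scaffold of the ligase that degrades REDD1, differed by 0.40.

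**Figure D3:**
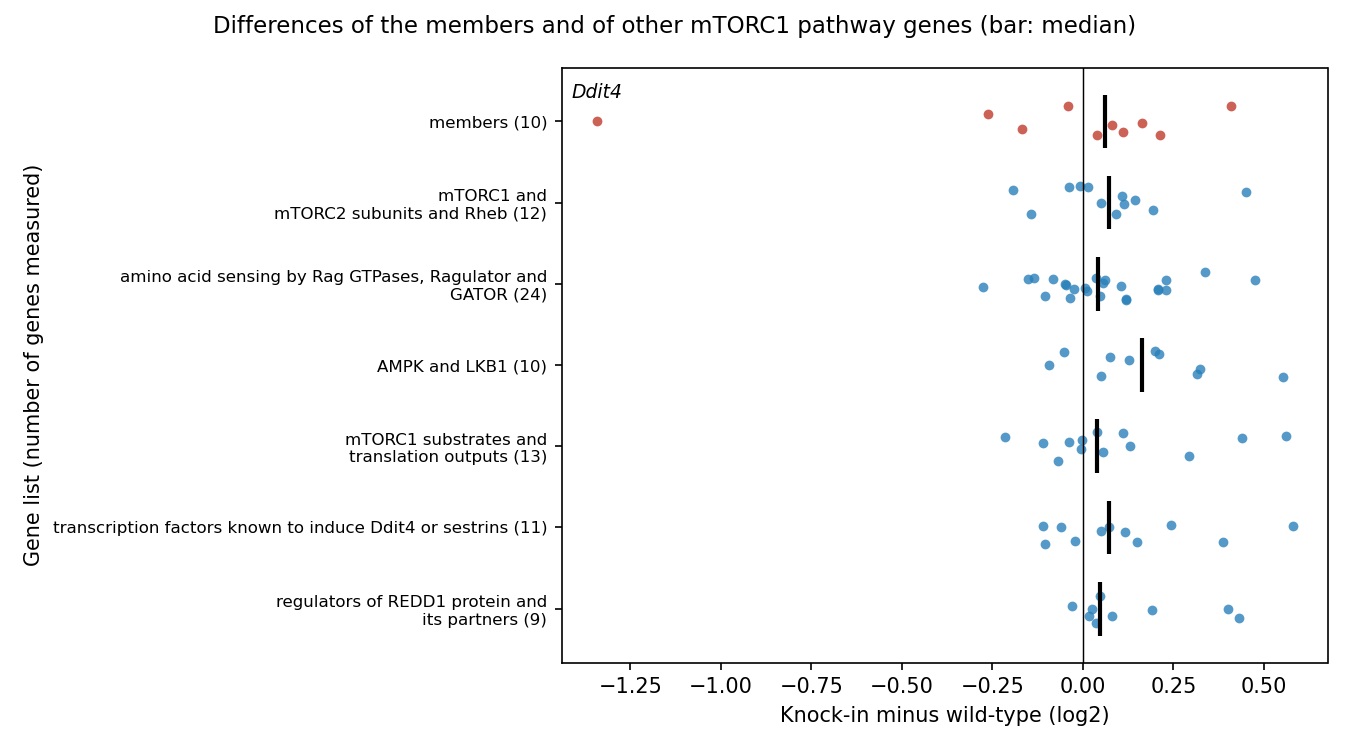
Knock-in minus wild-type log2 difference of each member (red) and of each measured gene in 6 further mTORC1 pathway lists (blue), with the list median as a bar. Ddit4 at -1.34 lies outside the range of each of the 6 pathway lists, and the list medians run from 0.04 to 0.16.

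The genes whose pattern over the 4 arrays was most like that of Ddit4 were found by the Euclidean distance between log2 profiles, each centred on its own mean. The 5 nearest of the other genes were 2210407C18Rik (distance 0.157), the interferon-induced GTPase gene Iigp1 (0.303), the p21 gene Cdkn1a (0.343), the pyruvate dehydrogenase kinase gene Pdk4 (0.380) and the lipase inhibitor gene Angptl4 (0.381), against a median distance of 1.38. For 2210407C18Rik the levels were 7.47 and 7.37 in knock-in hearts, against 8.79 and 9.04 in wild-type hearts. Each of the 5 was lower on both knock-in arrays, with differences between -1.67 and -1.07, as likeness to Ddit4 requires. With 4 arrays such likeness says little beyond a shared difference between the groups.

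Other transcripts that moved with the groups stand beside the Ddit4 result. Several clock genes did so, in both directions. Dbp read 11.52 and 11.33 in knock-in hearts, against 9.42 and 8.79 in wild-type hearts, and Arntl 7.22 and 7.64 against 8.52 and 9.05. Of the 6 clock genes listed, 5 had a higher mean and 1, Arntl, a lower one. The groups were apart for 4 of the higher ones, against 19.6% of all genes, and for Arntl, against 17%. Per1, which differed by 0.145, overlapped. All 6 hepatocyte markers were higher on both knock-in arrays, as were 19.6% of all genes. The summed linear level of these markers was 1238 and 2048 in knock-in against 592.1 and 420.2 in wild-type samples. Alb led them, at 8.58 and 9.66 in knock-in and 7.01 and 5.54 in wild-type samples. RMA lists no transcript at 0, so none of these markers can be called absent. The summed level of the 8 cardiomyocyte markers was 156054 and 160904 in knock-in against 151616 and 155608 in wild-type samples. Both knock-in sums were thus above both wild-type sums, by little. All 8 markers had a higher mean, with a median difference of 0.04. The groups did not overlap for 4 of the 8, against 26.7% higher without overlap among genes above the median. The 4 smooth muscle markers all had a lower mean, with summed levels of 7107 and 6124 in knock-in against 7997 and 7847 in wild-type samples. Acta2, the brightest, and Cnn1 were apart, whereas Myh11 (-0.01) and Tagln (-0.18) overlapped. The 4 measured lymphocyte markers, which are dim, also had lower means, with sums of 328.8 and 324.2 against 363.1 and 358.5. Cd3g and Ms4a1 were apart, whereas Cd3e and Cd79a overlapped. Of all genes, 17% were lower without overlap. Of the 3 adipocyte markers measured, 2 were higher and 1 lower, and their summed levels of 10678 and 10413 in knock-in and 10239 and 11004 in wild-type samples overlapped. Adipoq among them, the adiponectin gene, was dim and higher on both knock-in arrays. It read 6.47 and 6.54 in knock-in against 5.11 and 5.65 in wild-type samples, a difference of 1.13 (adjusted limma p of 0.237). Fabp4, by far the brightest of the 3, differed by -0.02 and overlapped, as did the dim Lep, at 0.03. The part of clock phase and of liver, cardiomyocyte, smooth muscle, lymphocyte or adipocyte transcripts in the Ddit4 difference was not tested.

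**Figure D4:**
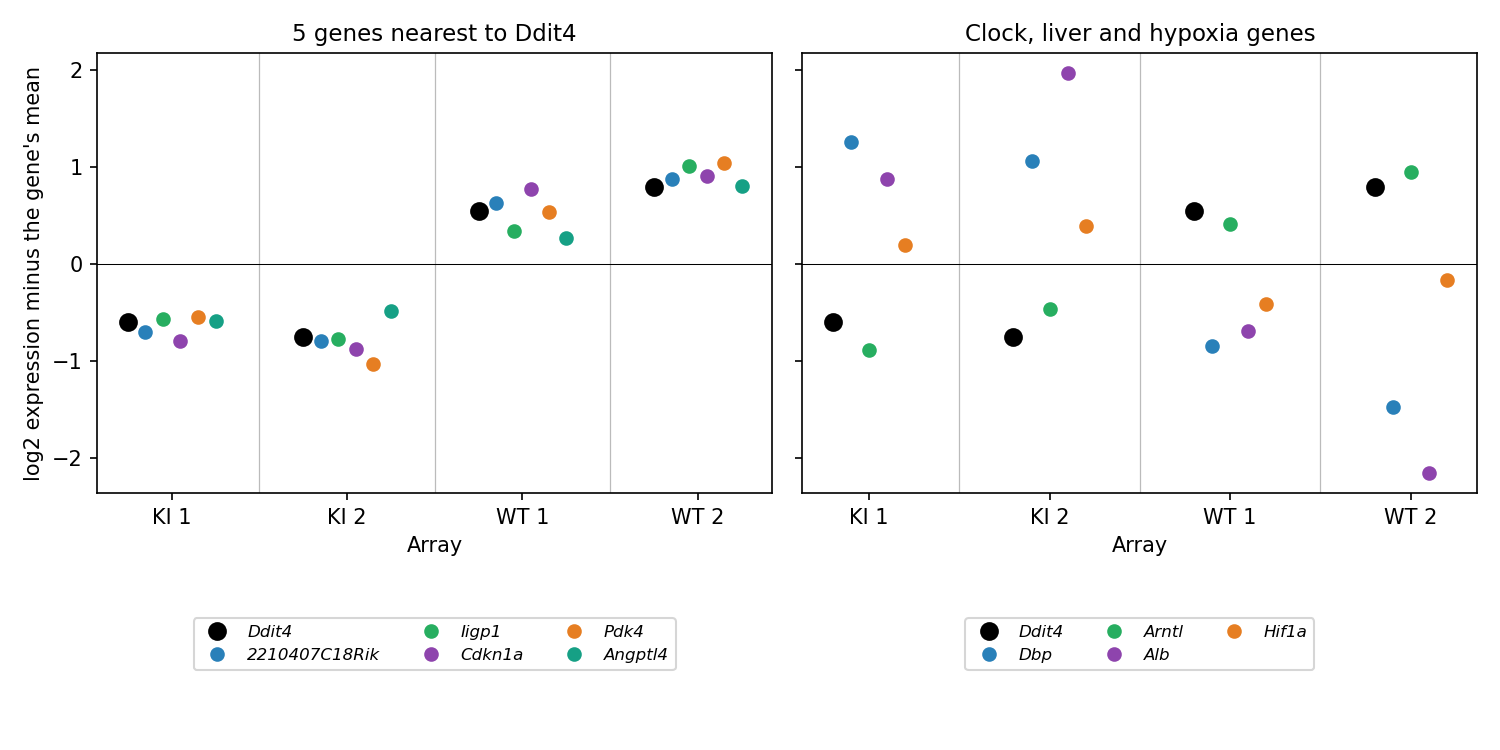
Log2 expression minus the gene's own mean on each array, for Ddit4 with its 5 nearest genes (left) and for Ddit4 with Dbp, Arntl, Alb and Hif1a (right), knock-in (KI) arrays left of wild-type (WT) arrays. The nearest genes lie below 0 on both knock-in arrays, as Ddit4 does, whereas Dbp, Alb and Hif1a lie above 0 there.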

How the data were processed

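Heart RNA was measured on 4 Affymetrix arrays, 2 per group, and groups and replicate numbers were read from the sample titles. The deposited values were log2 expression values made with RMA in Affymetrix Expression Console, per the submitters' processing notes, which name no version. Per the labels, the wild-type arrays were normalized only with these knock-in arrays, although they also served another comparison. RMA gives no detection call.

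Of 45101 probe sets, 64 were controls, 34945 had 1 gene symbol, 932 had several and 9160 had none. Symbols were updated by Entrez identifier with a RefSeq table (GRCm38.p6), which held 34741 of the 34945. Knock-in minus wild-type differences were fitted over all 18193 genes with lmFit and eBayes (limma 3.58.1, R 4.3.3), two-sided, with Benjamini-Hochberg adjustment and a threshold of 0.05. A second fit took all 45037 probe sets other than controls. The fit was tested on simulated data with differences larger than that of any member, so this test does not bear on calls at the sizes seen here. With 2 arrays a group, the smallest p of an exact permutation test is 0.333. The number of arrays limits the precision.

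Members and lists were chosen with earlier results of these data known. The text names all members, the 5 genes nearest to Ddit4 and, per pathway list, genes past the threshold and the 2 of largest difference; levels of Gsk3b, Atf4, Foxo1, Foxo3, Nr3c1 and of marker genes were added. The lists of fibroblast, endothelial, smooth muscle, macrophage, lymphocyte, erythroid, adipocyte and skeletal muscle markers had 0 genes past the threshold each, and median differences of 0.03, -0.12, -0.24, 0.05, -0.24, 0.05, 0.03 and 0.02. The members' promoter windows came from RefSeq. The settings tried besides were a replicate block, its crossed form, each array left out, centring, quantile normalization, an intensity trend with robust prior, genes above the median, and averaged or first-listed probe sets.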

Additional observations from a re-analysis of the deposited data

How the results depend on the processing

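The Ddit4 difference kept its sign under all 12 alternatives, from -1.47 to -1.22 with 1 array left out, where the adjusted limma p was 0.189 to 0.577 and a group of 1 array borrows its spread from the other group. It passed under an intensity trend with a robust prior (-1.34, adjusted p = 0.00616), with arrays centred (-1.30, 0.0341), after quantile normalization (-1.38, 0.0238), among genes above the median (-1.34, 0.0346) and with averaged probe sets (-1.34, 0.0222), and was then the 1 member past the threshold in each. Over all genes, 1 passed in the fit reported, 22 with the trend, 11 with centring, 11 after quantile normalization, 7 among genes above the median, 11 with averaged probe sets, 0 with the first-listed probe set and 0 with any array left out. Among the member probe sets 1 passed with the trend and 0 otherwise, and no other pathway gene passed under any alternative. Same-numbered arrays did not deviate together (r = -0.03 over all genes, -0.15 above the median). With 2 arrays a group this cannot settle whether the numbers pair the samples. With the replicate block 0 genes passed and the Ddit4 difference of -1.34 had an adjusted p of 0.709, and with the numbers crossed, an alternative chosen after seeing the data, 0 passed.

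Sign changes were limited to members near 0. Sesn2 became 0.0518 with averaged probe sets, 0.15 with the first-listed one and -0.18 to 0.10 with 1 array left out. Tsc2 ran from -0.10 to 0.26 with 1 array left out, Sesn3 became -0.0413 with averaged probe sets, and Tsc1 -0.0232 with averaged and -0.00315 with first-listed probe sets. Ddit4l, at 6.14 on average, was not among genes above the median. With 2 arrays a group and no detection call, small differences of dim probe sets such as those of Ddit4l could not be resolved.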
